A study of Homo sapiens with 6 samples.

Results

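The genes described here are the matrix metalloproteinases (MMP), the ADAM and ADAMTS proteases and the tissue inhibitors of metalloproteinases (TIMP), as measured on expression arrays of PrEC cells, which are normal prostate epithelial cells made immortal. They were taken as every array gene with a single annotated symbol that begins with MMP, TIMP, ADAM or ADAMTS followed by a digit, which gave 66 of 18404 genes. There were 22 MMP, 23 ADAM, 17 ADAMTS and 4 TIMP genes, and 4 of the ADAM genes are pseudogenes. Of 66 protein-coding genes of these families in the RefSeq table, 62 were measured, and MMP23B, ADAM7, ADAMTS7 and ADAMTS15 were not analysed here. RNA came from 3 samples of cells carrying the hairpin named shNT, the reference group, and 3 samples of cells with a hairpin against PKCλ/ι, named shPKCi. PKCλ/ι is the atypical protein kinase C encoded by PRKCI. All 6 samples were the same line in prostate epithelial growth medium, collected 48 hours after plating with no other treatment. Each group carries 1 hairpin, and whether a line is a clone or a pool is not given in the sources used here. The design text calls the samples of a group biological replicates. The single comparison, shPKCi against shNT, asks which transcripts differ between the lines.

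MMPs are zinc-dependent endopeptidases that cleave collagens, laminins and other matrix proteins, and most are secreted as inactive proforms. ADAMs are membrane-anchored relatives, several of which release the outer part of membrane proteins such as growth factors and Notch receptors. ADAMTS proteases are secreted and bind the matrix, where they trim proteoglycans, procollagens and von Willebrand factor. TIMPs block the active site of MMPs and of some ADAMs and ADAMTSs, and in epithelia the balance of proteases and inhibitors shapes the basement membrane.

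Values are array intensities on a linear scale, and a fold change is a difference of mean log2 intensities, shPKCi minus shNT, tested with limma across all 18404 genes. A gene is called higher or lower when its Benjamini-Hochberg adjusted p is under 0.05. Array medians lay between 44.9 and 48.6, and shNT replicate 2 stood apart, with correlations of 0.974 to 0.989 to the other arrays against 0.982 to 0.996 among the other 5. PRKCI, the target of the hairpin, read 1635, 1428 and 1843 in shNT and 800, 810 and 754 in shPKCi, so that it fell by 1.05 in log2 units (SE 0.11, limma adjusted p = 0.000279). The 10 epithelial markers all lay above the median signal of all genes, and their summed intensity was 20700 to 22300 in shNT and 19800 to 20400 in shPKCi. KRT5 and KRT14 were at percentiles 99.6 and 97.1 of signal. Of these 10 markers DSP, KRT19, ITGB4 and KRT14 fell, by 0.75, 0.52, 0.45 and 0.33, EPCAM rose by 0.60 and 5 did not pass. The call of KRT14 was lost on leaving out any array but shNT replicate 2 (limma adjusted p from 0.0628 to 0.142). Those of KRT19, ITGB4 and EPCAM were lost in some fits without 1 shPKCi array (limma adjusted p from 0.0507 to 0.084). Of 10 fibroblast markers, 4 lay in the lowest 25% of signal, among them DCN, LUM and POSTN, and of 9 leukocyte and 7 endothelial markers 5 each did. Above the median signal lay 2 fibroblast markers, FAP and COL1A1 (percentiles 85.0 and 62.1). So did 1 leukocyte marker, CD68 (78.9), and 1 endothelial marker, CLDN5 (61.5). Among the leukocyte and endothelial markers CD3D rose by 0.34 and KDR fell by 0.43, both at low signal. Both calls were lost on leaving out any single shPKCi array (limma adjusted p from 0.0518 to 0.103).

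The cells with the PKCλ/ι hairpin had more transcript of 2 secreted MMPs and 1 ADAMTS and less of 3 of the 4 TIMPs, of the sheddase ADAM17 and of 2 other MMPs. MMP1, MMP10 and ADAMTS1 rose, and TIMP1, TIMP2, TIMP3, ADAM17, MMP19 and MMP2 fell. In bulk RNA, fewer cells with a transcript and less of it per cell cannot be told apart. The 9 called genes are 13.6% of the 66, where 18.5% of all genes were called. The 3 that rose stand against 9.55% of all genes called higher, and the 6 that fell against 8.95% called lower. After median centring of the arrays, 4 rose and 5 fell. The groups did not overlap in 19 of the 66 (7 higher and 12 lower), or 28.8%, against 35.7% of all genes. The median log2 fold change was 0.01 over the 66 and -0.02 over all genes.

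**Figure D1:**
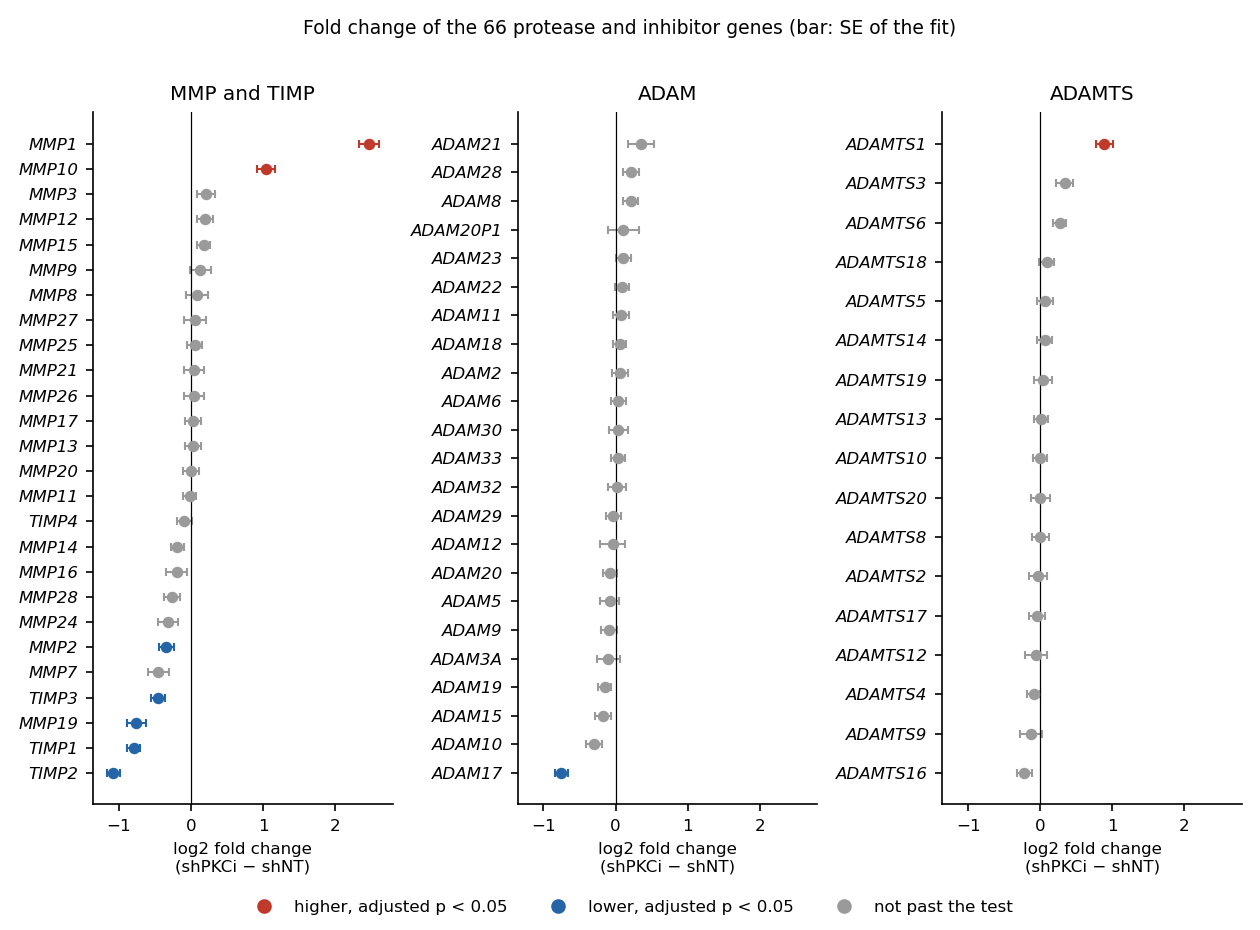
Log2 fold change (shPKCi minus shNT) of each of the 66 genes, by family, with the standard error of the limma fit as bars and colours for genes past an adjusted p of 0.05. MMP1 at 2.47 lies far to the right of every other gene, TIMP2 at -1.08 is the lowest, and 53 of the 66 lie within 0.3 of 0.

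Promoter sequences of the called genes are shown first, beside that of MMP7, which lies in the same gene cluster as MMP10. RefSeq promoter windows (GRCh38.p14) were held for 37 of the 66 genes and for 4 of the 9 called ones. Each sequence is the 250 bases before the annotated start of transcription, 5′ to 3′ on the gene's strand. Capitals mark matches to the AP-1 motif TGANTCA and to the TATA motif TATAAA, searched on both strands. The windows are chr11:102780629-102780878 (minus strand) for MMP10, chr11:102530748-102530997 (minus) for MMP7, chrX:47582186-47582435 (plus) for TIMP1, chr22:32801455-32801704 (plus) for TIMP3 and chr2:9555831-9556080 (minus) for ADAM17.
MMP10: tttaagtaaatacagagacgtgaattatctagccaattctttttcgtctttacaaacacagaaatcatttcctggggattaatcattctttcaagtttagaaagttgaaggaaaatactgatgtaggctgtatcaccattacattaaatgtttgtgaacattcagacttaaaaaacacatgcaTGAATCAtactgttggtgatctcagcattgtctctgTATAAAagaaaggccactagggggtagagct
MMP7: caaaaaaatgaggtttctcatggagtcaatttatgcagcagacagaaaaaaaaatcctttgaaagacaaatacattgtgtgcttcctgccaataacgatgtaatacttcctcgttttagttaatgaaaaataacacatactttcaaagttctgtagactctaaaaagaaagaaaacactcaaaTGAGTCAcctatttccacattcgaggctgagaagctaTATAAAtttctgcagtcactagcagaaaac
TIMP1: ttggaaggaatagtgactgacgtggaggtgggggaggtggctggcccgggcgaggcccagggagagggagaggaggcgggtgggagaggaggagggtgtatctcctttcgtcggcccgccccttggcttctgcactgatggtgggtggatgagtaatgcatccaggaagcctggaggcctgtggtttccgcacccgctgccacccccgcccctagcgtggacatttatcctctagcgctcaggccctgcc
TIMP3: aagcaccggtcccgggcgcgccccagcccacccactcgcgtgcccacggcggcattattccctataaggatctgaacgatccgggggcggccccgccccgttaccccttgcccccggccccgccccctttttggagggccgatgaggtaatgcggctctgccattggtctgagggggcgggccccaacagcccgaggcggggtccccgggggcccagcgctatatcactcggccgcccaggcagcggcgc
ADAM17: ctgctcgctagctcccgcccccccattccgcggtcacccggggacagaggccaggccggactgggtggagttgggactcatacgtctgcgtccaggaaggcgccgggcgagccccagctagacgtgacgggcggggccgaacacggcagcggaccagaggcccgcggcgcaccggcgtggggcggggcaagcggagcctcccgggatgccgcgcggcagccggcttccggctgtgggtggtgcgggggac
MMP10 and MMP7 both held an AP-1 match from 67 to 61 bases before the start and a TATA match closer to it, from 31 to 26 bases in MMP10 and from 30 to 25 in MMP7. The windows of TIMP1, TIMP3 and ADAM17 held no exact match to either motif in these 250 bases. Sites close to a motif but not exact, such as tgagtaa in the TIMP1 window, were not searched for. The AP-1 motif was found in 4 of the 37 windows, 10.8%, and in 6.60% of 27305 promoter windows of the same length. Its carriers were MMP7, MMP10, MMP20 and ADAMTS12, of which MMP10 was called. TATAAA was found in 7 of 37 windows, 18.9%, and in 11.1% of all. The ETS core GGAAG, searched on both strands and not marked, was in 25 of the 37, 67.6%, against 65.1% of all. It had 2 matches each in MMP7, TIMP1 and ADAM17.

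Among the collagenases, which cut fibrillar collagen, MMP1 rose and the others were dim. MMP1, the interstitial collagenase, read 58.7, 44.0 and 62.1 in shNT and 308, 284 and 315 in shPKCi. The groups were 221 units apart at their nearest, and the lowest shNT value was in replicate 2. The log2 fold change of MMP1 was 2.47 (SE 0.14, 95% interval 2.17 to 2.78, adjusted p = 6.83e-06), or 5.55-fold, and 3 of the 1758 genes called higher had a larger one. MMP8, the neutrophil collagenase, stayed between 6.88 and 10.3 in all arrays, at percentile 2.28 of signal. MMP13, collagenase of cartilage and carcinoma, stayed between 12.3 and 14.6 with overlapping groups and a log2 fold change of 0.03 (95% interval -0.21 to 0.27).

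Of the stromelysins, which cleave proteoglycans, laminin and proforms of other MMPs, MMP10 rose. MMP10 read 56.3, 57.7 and 48.8 in shNT and 127, 100 and 109 in shPKCi. The groups were well apart, and the log2 fold change was 1.04 (SE 0.12, adjusted p = 0.000377), or 2.06-fold. MMP3, the closest relative of MMP10, was dim, at 18.5, 20.1 and 15.4 in shNT and 19.6, 21.8 and 20.9 in shPKCi. Its groups overlapped and its log2 fold change was 0.21 (95% interval -0.05 to 0.48, adjusted p = 0.273). MMP11, which is activated inside the cell, lay between 83.0 and 89.5 in all arrays, with a log2 fold change of -0.02. Transcripts of MMP genes this closely related can bind the same probes, and their cross-hybridisation was not tested.

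MMP1, MMP10 and MMP3 lie in a row of 9 MMP genes on chromosome 11, in the order MMP7, MMP20, MMP27, MMP8, MMP10, MMP1, MMP3, MMP12 and MMP13 in the RefSeq table. MMP10 and MMP1 are next to each other among the MMP genes of this row, and only these passed the test of the 9. They are 22.2% of the row, where 18.5% of all genes were called. MMP7, the matrilysin of glandular epithelium at one end of the row, read 27.0, 37.4 and 26.3 in shNT and 20.6, 20.1 and 25.1 in shPKCi. Its groups did not overlap, with shNT replicate 2 the highest, and its log2 fold change was -0.45 (SE 0.15, adjusted p = 0.0703). The other 6 had log2 fold changes between 0 and 0.21, and their signal lay at percentile 18.3 or below. Background of these probe sets was not analysed here. The median of the 9 was 0.08.

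**Figure D2:**
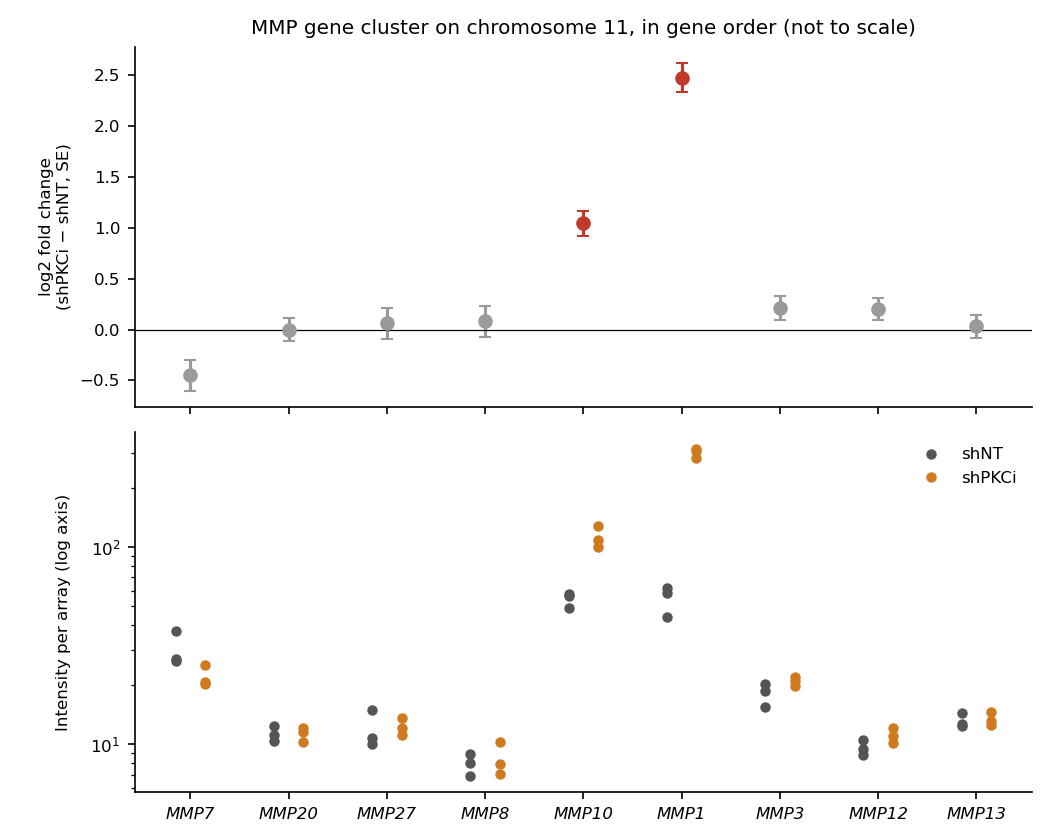
The 9 MMP genes of the chromosome 11 row in gene order, with log2 fold change and its SE above and the intensity of each array on a log axis below (grey, shNT; orange, shPKCi). MMP10 and MMP1 stand apart at 1.04 and 2.47, MMP7 lies at -0.45, and the remaining genes stay near 0 at low intensity.

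Of the gelatinases, which degrade denatured collagen and type IV collagen, MMP2 passed narrowly. MMP2 read 70.5, 78.8 and 72.9 in shNT and 62.7, 55.8 and 57.4 in shPKCi. The groups did not overlap, and MMP2 fell by 0.34 (SE 0.10, adjusted p = 0.0405), or 1.26-fold. The call was lost without any single array, with adjusted p from 0.0537 without shNT replicate 2 to 0.164 without shPKCi replicate 2, and after median centring of the arrays (adjusted p = 0.0621). MMP9 read 53.2, 65.4 and 48.7 in shNT and 65.7, 49.6 and 67.8 in shPKCi. Its groups overlapped, and its log2 fold change was 0.13 (95% interval -0.21 to 0.47).

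None of the 6 membrane-type MMPs passed, where 18.5% of all genes did. Their median signal lay at percentile 36.1. MMP14, which activates pro-MMP2 at the cell surface, was the brightest of them by percentile of signal (81.1) and read 320, 323 and 317 in shNT and 278, 274 and 289 in shPKCi. Its groups did not overlap, but the difference was small, and its log2 fold change was -0.19 (SE 0.09, 95% interval -0.39 to 0.01, adjusted p = 0.183). MMP15 was 33.2 to 36.2 in shNT and 37.7 to 41.6 in shPKCi (log2 fold change 0.18, adjusted p = 0.245). The log2 fold change of MMP24 was -0.32 (adjusted p = 0.153), and those of MMP16, MMP17 and MMP25 were -0.20, 0.03 and 0.05. MMP16 has a second, dimmer probe set, at -0.13.

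Among the remaining MMPs, MMP19 fell. MMP19, a secreted protease of basement membrane proteins, read 111, 82.7 and 94.1 in shNT and 52.1, 52.9 and 63.7 in shPKCi. All shPKCi values were lower than all shNT values, and MMP19 fell by 0.76 (SE 0.13, adjusted p = 0.0034), or 1.70-fold. MMP28, an MMP of keratinocytes, read 73.9, 88.6 and 76.5 in shNT and 62.0, 66.6 and 70.2 in shPKCi. Its groups were close but did not overlap, and its log2 fold change of -0.26 did not pass (adjusted p = 0.128). MMP21, MMP26 and the enamel protease gene MMP20 had log2 fold changes of 0.04, 0.04 and 0 at low signal.

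Of the 4 inhibitor genes 3 fell, where 18.5% of all genes were called, and 33.9% of all genes in the brightest 25%, in which those 3 lie. TIMP1, a broad MMP inhibitor, read 1449, 1577 and 1389 in shNT and 854, 845 and 842 in shPKCi. The shPKCi arrays were close together and far below shNT, and TIMP1 fell by 0.79 (SE 0.09, adjusted p = 0.00045), or 1.73-fold. TIMP2, which also takes part in the activation of pro-MMP2 by MMP14, read 413, 381 and 407 in shNT and 187, 194 and 187 in shPKCi. Here too no array was intermediate, and TIMP2 fell by 1.08 (SE 0.09, adjusted p = 6.01e-05), or 2.11-fold.

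TIMP3, the matrix-bound TIMP that also inhibits ADAM17 and ADAMTS proteases, read 899, 785 and 916 in shNT and 634, 618 and 637 in shPKCi. The lowest shNT value, in replicate 2, was still above all shPKCi values, and TIMP3 fell by 0.46 (SE 0.10, adjusted p = 0.0106), or 1.37-fold. Its second, dimmer probe set fell by 0.50 (adjusted p = 0.00558, taken over every probe set with 1 symbol). The call of TIMP3 was lost without shPKCi replicate 2 (log2 fold change -0.45, adjusted p = 0.0536). TIMP4 was dim, at 38.1, 43.8 and 40.6 in shNT and 36.7, 35.3 and 43.8 in shPKCi, with overlapping groups and a log2 fold change of -0.09 (95% interval -0.34 to 0.17).

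**Figure D3:**
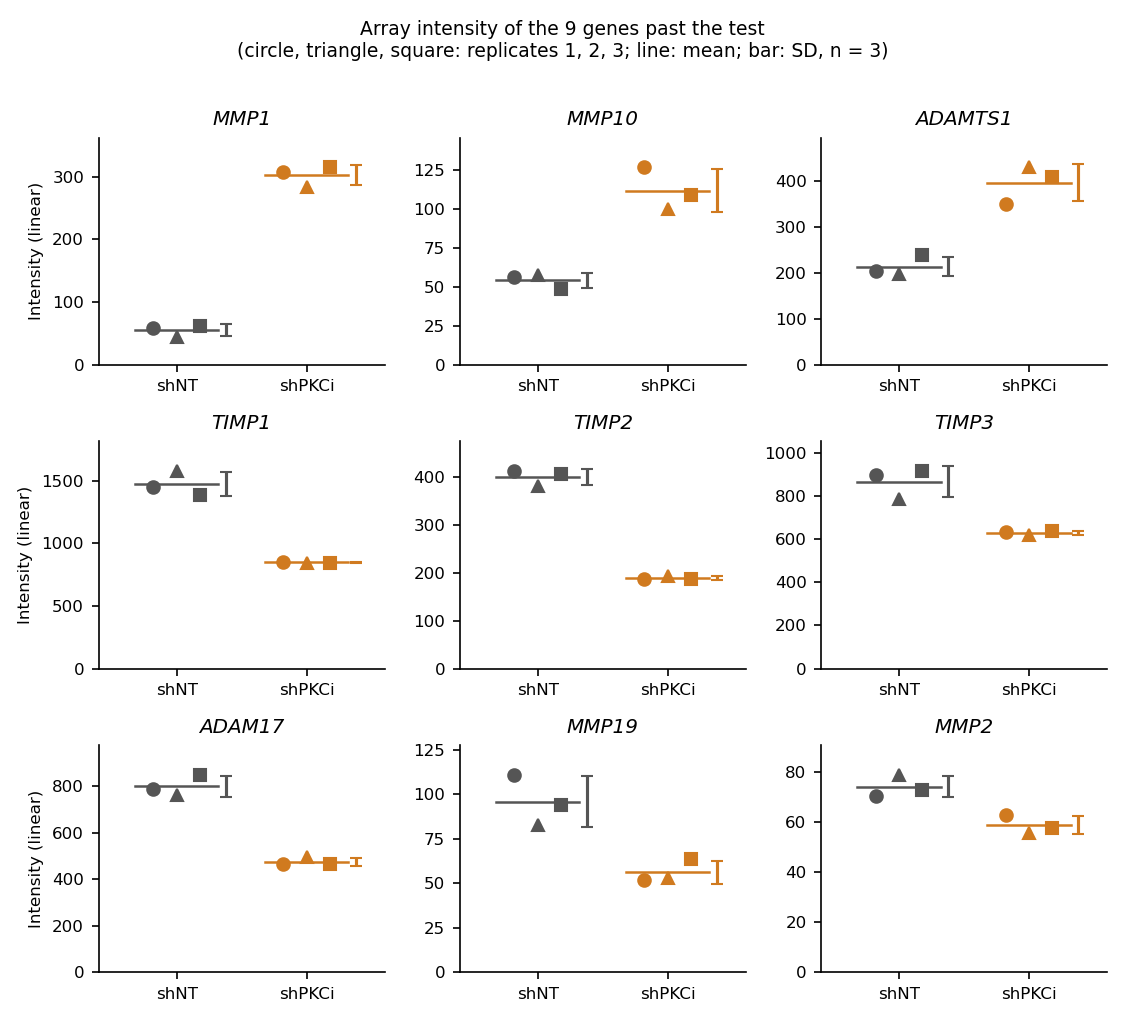
Intensity on each array (linear axis from 0) of the 9 genes past the test, with group means as lines and SD (n = 3) as bars. In all 9 panels the 3 shPKCi arrays lie wholly above or wholly below the 3 shNT arrays, and relative to the shNT mean the gap between the groups is widest in MMP1 and narrowest in MMP2.

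ADAM17 was the 1 ADAM gene of 23 that passed, or 4.35%, where 18.5% of all genes did. The median signal of the 23 lay at percentile 16.6. ADAM17, the sheddase that releases TNF and many ligands of the EGF receptor, read 786, 763 and 849 in shNT and 466, 494 and 464 in shPKCi. The groups were 269 units apart at their nearest, and ADAM17 fell by 0.75 (SE 0.09, 95% interval -0.96 to -0.54, adjusted p = 0.00062), or 1.68-fold. ADAM10, the main sheddase of Notch receptors and cadherins, read 2315, 1854 and 2295 in shNT and 1727, 1783 and 1725 in shPKCi. Its groups did not overlap, although shNT replicate 2 lay close to the shPKCi arrays, and its log2 fold change was -0.30 (SE 0.11, 95% interval -0.55 to -0.05, adjusted p = 0.10). Without shNT replicate 2 ADAM10 passed, at -0.40 (adjusted p = 0.00943), and it also passed after cyclic loess (-0.40, adjusted p = 0.0116), with array weights (-0.37, adjusted p = 0.00833) and when the fit held the brighter genes alone, those over the median signal (-0.30, adjusted p = 0.0476).

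ADAM9, the family gene at the highest percentile of signal (98.9), read 2472, 2127 and 2689 in shNT and 2252, 2437 and 2126 in shPKCi. Its groups overlapped widely, and its log2 fold change was -0.09 (95% interval -0.35 to 0.16). ADAM15 and ADAM19, further catalytic ADAMs, showed fold changes of -0.18 and -0.15 in log2 (adjusted p of 0.342 and 0.332). ADAM8, known from leukocytes, was 57.9 to 66.9 in shNT and 70.4 to 79.2 in shPKCi, and its log2 fold change was 0.21 (adjusted p = 0.201). The 12 catalytic ADAM genes together had a median of -0.06, with 1 called. The 7 ADAMs without a working protease site, such as ADAM22 and ADAM23 of the nervous system and ADAM2 of sperm, ranged from -0.03 to 0.11. The 4 pseudogenes ranged from -0.10 to 0.11. In neither of these last groups did any gene have shNT and shPKCi arrays that did not overlap, against 35.7% of all genes. Their median signal lay at percentiles 9.52 and 7.43.

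Of 17 ADAMTS genes, ADAMTS1 rose and the others did not pass. That is 5.88% called, against 18.5% of all genes, and the median signal of the 17 lay at percentile 33.7. ADAMTS1, which cleaves versican and aggrecan, read 205, 198 and 238 in shNT and 351, 430 and 408 in shPKCi. The groups were well apart, and the log2 fold change was 0.89 (SE 0.12, adjusted p = 0.000786), or 1.86-fold. Its neighbour and relative ADAMTS5 was dim, between 15.2 and 19.1 in all arrays, with a log2 fold change of 0.07. ADAMTS4, ADAMTS8, ADAMTS9 and ADAMTS20, which also cut proteoglycans, lay between -0.13 and 0.

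ADAMTS6 and ADAMTS3 came close to the threshold. ADAMTS6 read 82.9, 87.0 and 84.7 in shNT and 100, 105 and 102 in shPKCi, with a narrow spread in each group, and its log2 fold change was 0.27 (SE 0.09, adjusted p = 0.0638). ADAMTS6 passed in 7 of the alternative fits, among them the one after median centring (0.31, adjusted p = 0.0457) and the one without shNT replicate 2 (0.29, adjusted p = 0.038). ADAMTS3, a procollagen N-proteinase, read 36.9, 38.9 and 43.5 in shNT and 43.8, 53.4 and 54.3 in shPKCi, and its log2 fold change was 0.34 (SE 0.12, adjusted p = 0.0767). The groups of ADAMTS3 nearly touched, and it passed without shPKCi replicate 1 (0.44, adjusted p = 0.0498). It also passed after cyclic loess (0.39, adjusted p = 0.0479) and with array weights (0.36, adjusted p = 0.0336). The other procollagen N-proteinase genes, ADAMTS2 and ADAMTS14, had log2 fold changes of -0.03 and 0.06, and ADAMTS13, the protease of von Willebrand factor, one of 0.01.

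Most of the 66 genes were dim in these cells. Of them 29 lay in the lowest 25% of signal over all genes and 49 below the median, and 17 lay above it. Above the median, 8 of 17 (47.1%) were called, where 29.9% of all genes in that range were. Below it, 1 of 49 (2.04%) was called, MMP2, where 7.15% of all genes were. In the brightest 25% of genes 5 of 8 (62.5%) were called, where 33.9% of all genes in that range were. The 3 others were ADAM9, ADAM10 and MMP14.

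**Figure D4:**
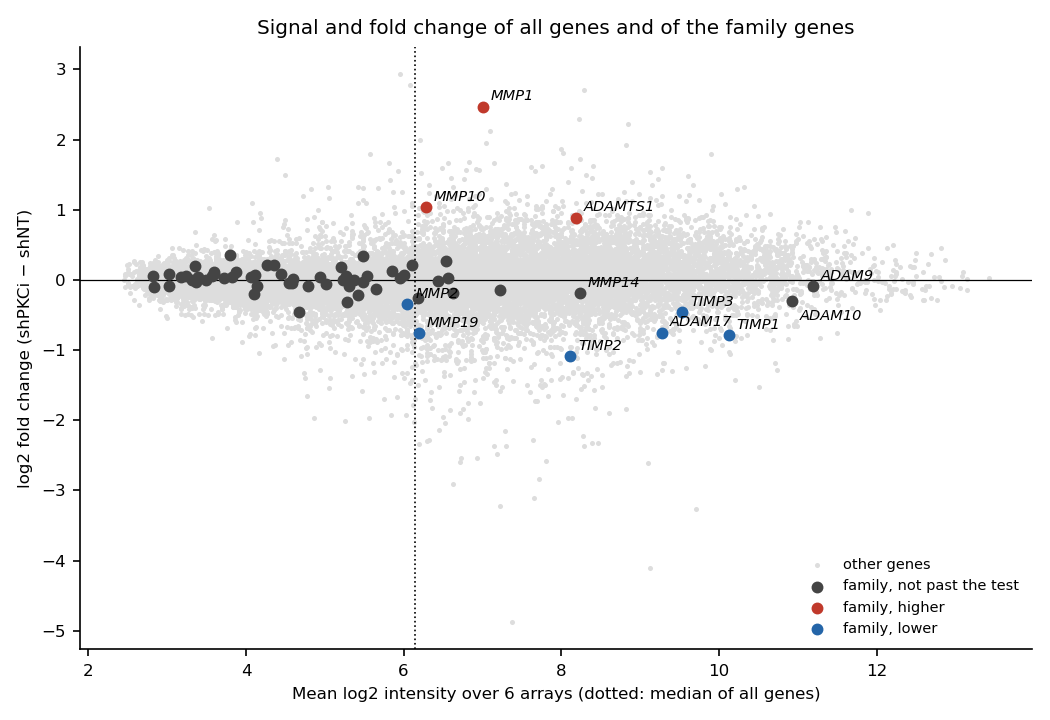
Mean log2 intensity over the 6 arrays against log2 fold change for all 18404 genes (light grey) and the 66 family genes (dark grey, or red and blue where called), with the median signal dotted. The crowd of dark points to the left of the dotted line holds 49 family genes, of which MMP2 alone is called.

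Genes that work with the sheddases were described by lists, whose counts stand against the 18.5% of all genes called and the 29.9% of those above the median signal. Ligands of the EGF receptor family, which ADAM10 and ADAM17 release from the membrane, rose in 3 of 7 measured genes and fell in none. The list median was 0.15. EREG read 352, 349 and 363 in shNT and 864, 957 and 905 in shPKCi, and rose by 1.36 (adjusted p = 2.08e-05). HBEGF read 335, 325 and 333 in shNT and 758, 802 and 767 in shPKCi, and rose by 1.23 (adjusted p = 2.73e-05). TGFA read 171, 169 and 174 in shNT and 263, 236 and 216 in shPKCi, and rose by 0.47 (adjusted p = 0.0107). In all 3 the groups were apart, and in TGFA the shPKCi spread was the wider. Without shPKCi replicate 1 the call of TGFA was lost (adjusted p = 0.0535). AREG was not analysed here.

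Other substrates of ADAM10 and ADAM17 fell in 5 and rose in 2 of 19 measured genes, with a median of -0.17. The adhesion molecule gene L1CAM fell by 1.18 (adjusted p = 0.000144) and NOTCH1 by 1.06 (adjusted p = 0.000338). NOTCH1 read 107, 139 and 108 in shNT and 57.1, 55.6 and 56.1 in shPKCi. The Notch ligand gene DLL1 fell by 0.67, and TNF, the namesake substrate of ADAM17, rose by 0.60 (adjusted p = 0.0066). The other substrate genes that fell lost their calls in several fits without 1 array (limma adjusted p from 0.0538 to 0.153). Of 10 genes that move the sheddases through the cell, 4 fell and none rose. They were TSPAN33 (-0.77), RHBDF2 (-0.47), PACS2 (-0.47) and TSPAN5 (-0.43). RHBDF2, which encodes the iRhom that carries ADAM17 to the surface, read 60.0, 65.5 and 72.6 in shNT and 48.8, 46.8 and 46.9 in shPKCi (adjusted p = 0.0109). Its call was lost without shPKCi replicate 2 (adjusted p = 0.0526). PACS2 lost its call when its probe sets were averaged (-0.22, adjusted p = 0.255), and TSPAN5 did not pass without any of shNT replicate 3, shPKCi replicate 1 or shPKCi replicate 2 (adjusted p from 0.0611 to 0.0948).

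Genes of the machinery that activates proteases passed in 1 of 11 measured cases. None of 4 proprotein convertase genes passed, and FURIN, which removes the propeptide of ADAMs and membrane-type MMPs, read 83.9 to 96.0 in shNT and 87.3 to 95.7 in shPKCi. Of 7 plasminogen system genes, PLAUR, the urokinase receptor, fell by 0.41 (adjusted p = 0.0207), a call lost without shNT replicate 3, shPKCi replicate 1 or shPKCi replicate 2 (adjusted p from 0.0742 to 0.0991). The log2 fold change of PLAU, urokinase itself, was 0.25 (adjusted p = 0.0849).

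Inhibitors and partners outside the TIMP family went both ways, with 2 of 10 higher and 2 lower. RECK, a membrane-anchored inhibitor of MMPs, read 75.1, 67.9 and 71.3 in shNT and 42.2, 34.5 and 47.4 in shPKCi, and fell by 0.80 (adjusted p = 0.00211). TFPI2, a Kunitz-type inhibitor of serine proteases in the matrix, read 370, 332 and 381 in shNT and 1022, 932 and 990 in shPKCi, and rose by 1.44 (adjusted p = 2.12e-05). For both genes every shPKCi array lay on the same side of every shNT array. LCN2, whose product binds MMP9, rose by 0.72, and the testican gene SPOCK1 fell by 0.55. The log2 fold change of BSG, an inducer of MMPs on the cell surface, was 0.11 (adjusted p = 0.525). Among 15 related metalloproteinase genes, the cell-surface peptidase genes MME and ECE1 fell by 1.42 and 0.53 and ADAMTSL4 by 0.46, and none rose. The call of ADAMTSL4 was lost in 3 of the 6 fits without 1 array, with adjusted p up to 0.117.

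Matrix proteins that these enzymes cleave fell in 7 and rose in 1 of 22 measured genes, with a median of -0.22. VCAN, which encodes versican, read 177, 188 and 197 in shNT and 36.7, 43.6 and 58.8 in shPKCi, and fell by 2.04 (adjusted p = 3.73e-05), or 4.11-fold. NID1, a nidogen gene whose product links laminin to type IV collagen, read 210, 244 and 236 in shNT and 67.1, 67.9 and 70.1 in shPKCi, and fell by 1.75 (adjusted p = 6.89e-06). Its relative NID2 read 119, 118 and 121 in shNT and 198, 210 and 200 in shPKCi, and rose by 0.76 (adjusted p = 0.000409). In all 3 the groups were far apart. The laminin gene LAMB1 fell by 0.51 (adjusted p = 0.00404). Each of the other matrix genes that fell lost its call in at least 1 fit without 1 array (limma adjusted p from 0.0508 to 0.0951).

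Transcription factors and cytokines known to act on MMP genes were called in 8 of 23, 3 higher and 5 lower. The interleukin gene IL1B read 414, 356 and 422 in shNT and 892, 845 and 890 in shPKCi, and rose by 1.14 (adjusted p = 8.68e-05). FOSL1, an AP-1 subunit, read 232, 190 and 261 in shNT and 311, 353 and 339 in shPKCi, and rose by 0.56 (adjusted p = 0.0137). Without shPKCi replicate 2 that call was lost (adjusted p = 0.0637). The AP-1 subunit FOS fell by 0.62, and the log2 fold change of JUN was -0.30 (adjusted p = 0.0611). JUN passed in 7 of the alternative fits, among them that without shNT replicate 2 (adjusted p = 0.0282). ETS2 fell by 0.87 and ELK3 by 0.62, while the log2 fold change of ETS1 was -0.16 (adjusted p = 0.373). Of the 5 that fell, 1 not named here lost its call on leaving out any single array (limma adjusted p from 0.0512 to 0.158). Over the 9 lists, 38 of 117 measured genes were called, 11 higher and 27 lower, or 32.5%, against 18.5% of all genes, and their median signal lay at percentile 59.2, above the 32.8 of the 66 family genes.

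**Figure D5:**
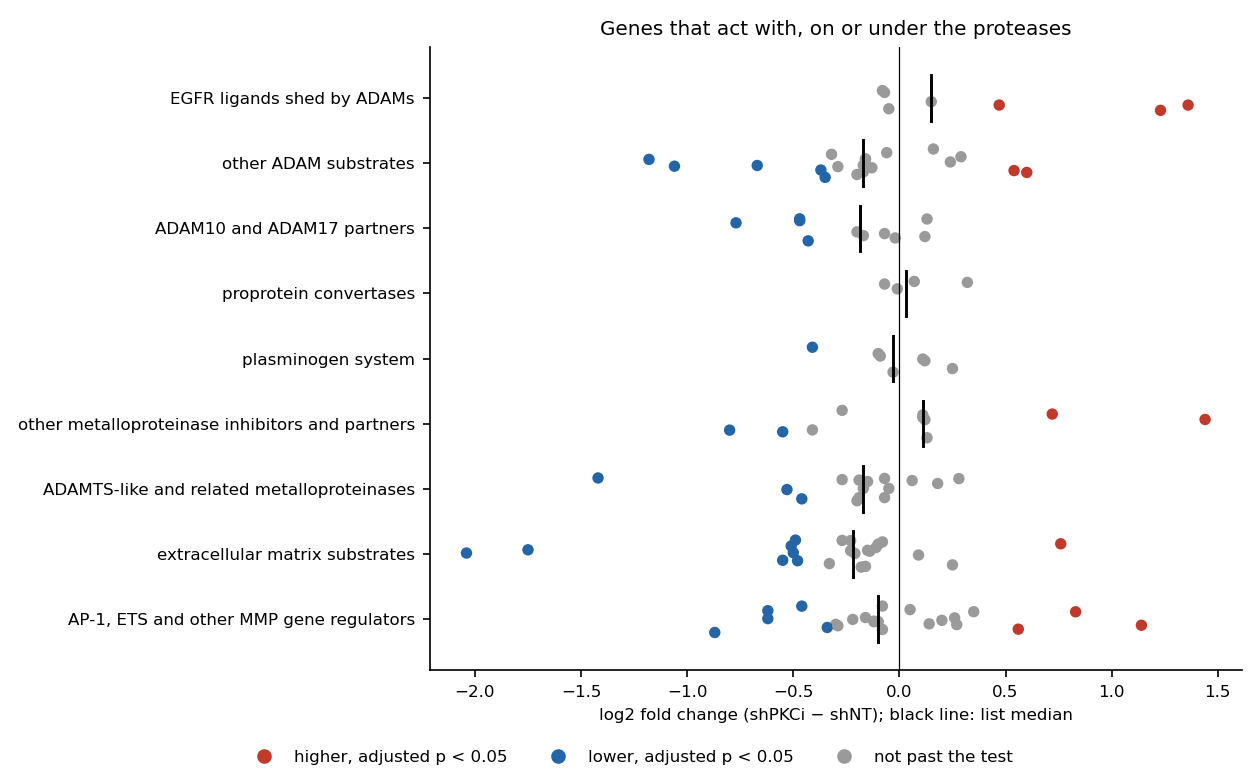
Log2 fold change (shPKCi minus shNT) of the measured genes of 9 lists around the proteases, 1 point per gene with vertical scatter only for legibility, colours for genes past an adjusted p of 0.05 and a black line at each list's median. Ligands of the EGF receptor family hold the red points at 1.23 and 1.36, and matrix substrates the blue ones at -1.75 and -2.04.

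Of 10 markers of fibroblasts, a cell type known for TIMP and MMP2 transcripts, 2 fell, none rose and 8 did not pass, with a median log2 fold change of -0.18, where 8.95% of all genes were called lower. FAP fell by 1.05 (adjusted p = 0.000501) and COL1A1 by 0.49 (adjusted p = 0.0244). The summed intensity of the 10 was 937 to 1030 in shNT and 599 to 623 in shPKCi. Most of that difference was FAP, and the other 9 summed to 381 to 456 in shNT and 325 to 349 in shPKCi. FAP, the brightest of the list by percentile of signal (85.0), read 570, 481 and 650 in shNT and 250, 291 and 277 in shPKCi. DCN and LUM were at percentiles 3.42 and 1.81 over the 6 arrays, and PDGFRA, at percentile 18.1, had a log2 fold change of 0.11. The call of COL1A1 was lost without shPKCi replicate 2 (0.0739) or shPKCi replicate 3 (0.0951), by limma adjusted p. The part of other cells in the TIMP and MMP2 values was not tested.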

How the data were processed

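Biotin-labelled total RNA of 6 PrEC samples was measured, 1 array per sample, and samples were grouped by title. The authors deposited probe set intensities on a linear scale, for 32321 probe sets, and the submitters' processing notes name RMA. The RMA version and the genome build are not given in the sources used here. Since RMA usually yields log2 values, the linear scale is read from the values themselves. Background is not known per gene, as detection calls were not used.

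Intensities were taken to log2. The platform annotation listed 19158 probe sets with 1 symbol, 1388 with several and did not list 11775. The probe set of highest mean stood for a gene (68 probe sets for the 66 genes). Probe sets of several symbols that begin with a family stem numbered 2 and were left out. All 18404 genes were fitted with limma 3.58.1 (lmFit, eBayes) in R 4.3.3, without covariate or filter. The median SE was 0.11, and 3 arrays a group limit the precision. The fit was also run on 20 simulated data sets with independent errors and 200 changed genes. That is fewer than the 3406 called here, and no simulated array stood apart, so it does not check the calls of these data. Family genes, lists, motifs and classes were chosen with earlier results of these data known. Every gene of the 66 could be named, those past the test always. Of each list up to 4 genes of smallest adjusted p were named, with 14 others whatever their values. COL1A1 and the other cell type markers were named as markers. As alternatives the fit was repeated with a replicate block, leaving out each array, 2 scalings, 2 signal filters, 2 probe set rules, a pseudocount of 16, a trended robust variance, array weights, a threshold of 0.01 and treat at a fold of 1.2.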

Additional observations from a re-analysis of the deposited data

How the results depend on the processing

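Under 18 alternatives, MMP1, MMP10, ADAMTS1, TIMP1, TIMP2, ADAM17 and MMP19 kept direction and call in all, TIMP3 in 15, and MMP2 in 7 of the 17 that tested it. No called gene of the 66 changed direction. The number of family genes called was 7 to 10 in the fits without 1 array. After cyclic loess 12 were called (5 higher and 7 lower), or 18.2%, against 19.4% of all genes. When the fit held only genes above the median signal, 10 of 17 were called, or 58.8%, against 38.7% of all genes there. With array weights 14 were called (5 higher and 9 lower, with MMP7 and MMP16 at adjusted p of 0.0308 and 0.0425 by limma). The cause was not tested. The 14 are 21.2% of the 66, and with array weights 4657 of all genes, 25.3%, were called. Calls over all genes ran from 2043 to 3892 without 1 array, the lowest without shPKCi replicate 2, and 2128 were left without shPKCi replicate 1. They were 1772 at an adjusted p under 0.01 and 1102 with treat at a fold of 1.2, which are stricter by construction, as are the 23 and 14 list genes called. Same-numbered arrays deviated from their group means with correlations of 0.12, -0.06 and -0.18. So few arrays cannot settle whether samples of the same number were processed together. With the replicate block 2978 genes were called, 8 of them family genes, without MMP2 (adjusted p = 0.0887), and PRKCI had an adjusted p of 0.000708. Of the 66 genes 29 lay in the lowest 25% of signal, where 2.93% of all genes were called.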
